A study of Mus musculus with 9 samples.

Results

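The 10 genes described here are part of the 20660 genes that the arrays name and of the 15014 that were tested. They are the cadherin genes Cdh1 and Cdh2, the vimentin gene Vim, the repressor genes Snai1, Snai2, Twist1, Zeb1 and Zeb2, and the matricellular protein genes Ccn1 and Ccn2. They were taken as a named set, found on the array by RefSeq accession through 12 probes. The naming rule uses no measured value, though the set was drawn up with earlier results of these data known. RNA came from mouse embryonic stem (ES) cells of 3 lines: a PKM1 knock-in line, a PKM2 knock-in line and a wild type line. PKM1 and PKM2 are splice forms of pyruvate kinase M, an enzyme of glycolysis. Each line was sampled at day 0 as undifferentiated cells in medium with LIF, the cytokine that keeps ES cells undifferentiated, and at days 3 and 7 as embryoid bodies in floating culture without LIF. The series followed how these lines differentiate into the germ layers. There was 1 array per line and day, 9 in all, so a genotype is 1 cell line. Repeats of a day are the 3 lines, and repeats of a line are the 3 days. Whether arrays come from separate cultures is not given in the sources used here, and p-values measure only the spread between these arrays.

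In an epithelial to mesenchymal transition, cells joined in a sheet give up their junctions and become motile. E-cadherin, encoded by Cdh1, holds epithelial cells together and also joins ES cells to one another in colonies. In the transition it gives way to N-cadherin, encoded by Cdh2, while vimentin, an intermediate filament protein, becomes abundant. Snail (Snai1), Slug (Snai2), Twist1, Zeb1 and Zeb2 are transcription factors that drive this switch, and Snail and the Zeb proteins repress Cdh1 directly through E-box sequences. In the embryo the switch takes place at gastrulation and when neural crest cells leave the neural tube. The CCN proteins CCN1 (CYR61) and CCN2 (CTGF) are secreted into the matrix and bind integrins, and their genes are well known targets of YAP and TEAD, of serum response factor (SRF) and of TGF-beta.

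The share of spots well above background ranged over the arrays from 54.2 to 61.6 percent, and no spot was saturated (0 on every array). Any 2 arrays correlated at 0.892 to 0.984 in log2 signal. Pkm, the edited gene, was read by 1 probe, with log2 scaled signals of 13.58 to 16.10 over the 9 arrays, and whether this probe tells the 2 splice forms apart was not tested. All 8 ES cell markers were well above background on all 9 arrays. Arrays lay on 3 slides, the second of which was scanned on another day than the first. Slide 1 held the wild type arrays of days 0 and 7, the PKM2 knock-in arrays of days 0 and 3 and the PKM1 knock-in day 3 array. Slide 2 held the PKM1 knock-in arrays of days 0 and 7 and the wild type day 3 array, and slide 3 held the PKM2 knock-in day 7 array alone. Levels below are log2 of the processed signal after scaling every array to the same 75th percentile, and 1 unit is a 2-fold difference. They are set against each other within a gene only, since probes differ in brightness. All 10 genes passed the filter on dim probes, and 9 of them were well above background on all 9 arrays. The exception was Zeb2, whose brighter probe was not well above background on the PKM1 knock-in day 0 and wild type day 3 arrays and whose other probe was not on any array.

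**Figure D1:**
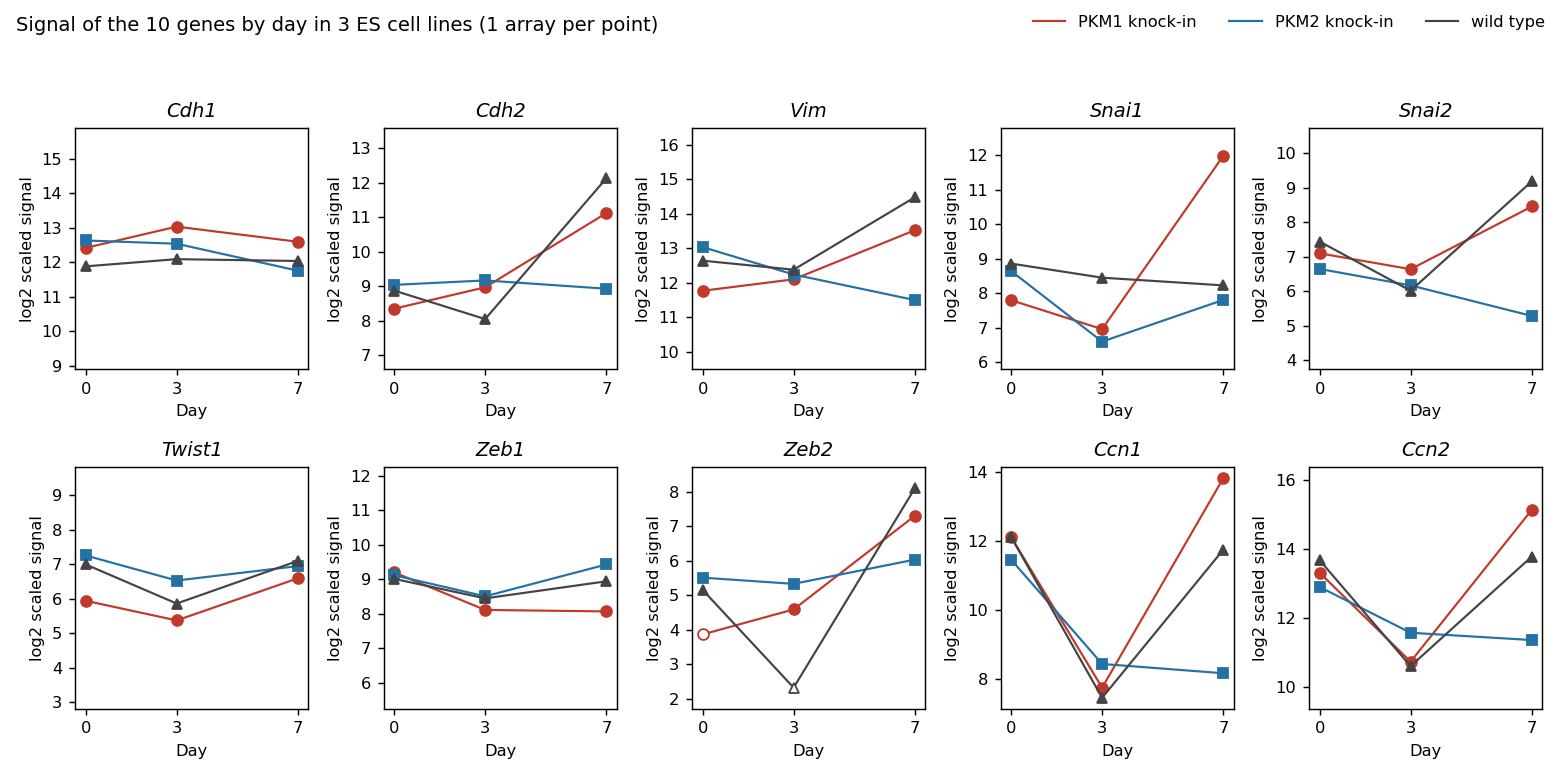
Log2 scaled signal (vertical axes, each spanning the same number of log2 units) of the 10 genes at days 0, 3 and 7 (horizontal axes) in the PKM1 knock-in, PKM2 knock-in and wild type lines. Each point is 1 array, with no error bar, and open points are not well above background. Ccn1 and Ccn2 are low at day 3 in all 3 lines, and Cdh2, Vim and Snai2 are high at day 7 in the PKM1 knock-in and wild type lines only.

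Cdh1 was bright and nearly level. Its log2 scaled signal at days 0, 3 and 7 was 12.41, 13.03 and 12.59 in PKM1 knock-in cells, 12.63, 12.54 and 11.75 in PKM2 knock-in cells, and 11.88, 12.09 and 12.04 in wild type. The arrays of the 3 days overlapped, and the PKM2 knock-in line held the lowest value, at day 7. Cdh1 was printed as 10 spots on each array, whose standard deviation within an array lay between 0.043 and 0.188 on the log2 scale. Over the 9 arrays it spanned 2.42-fold, the narrowest span of the 10 genes. The fitted difference from day 0 was 0.24 ± 0.26 at day 3 (SE, n = 3 lines, 95% interval -0.38 to 0.87, limma adjusted p = 0.594) and -0.18 ± 0.26 at day 7 (95% interval -0.81 to 0.44, adjusted p = 0.768). The second sign was not stable, and it was 0.08 with the slide as a block.

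Cdh2 was high on 2 arrays, at day 7 of the wild type and PKM1 knock-in lines. The log2 scaled signal of Cdh2 at days 0, 3 and 7 was 8.36, 8.98 and 11.13 in PKM1 knock-in cells, 9.05, 9.17 and 8.93 in PKM2 knock-in cells, and 8.88, 8.06 and 12.13 in wild type. The PKM2 knock-in line thus stayed near its starting level, and the day 7 arrays overlapped those of days 0 and 3. Its 2 probes differed in level by 0.444 to 0.786 and ran in parallel. Day 7 averaged 10.73 ± 1.64 and day 0 averaged 8.76 ± 0.36 (SD, n = 3 lines each). The fitted difference was 1.97 ± 0.78 (SE), which did not pass (limma adjusted p = 0.323). Without the PKM2 knock-in day 7 array it was 3.05 and passed (adjusted p = 0.0476), as did 1.51 percent of all genes.

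Vim followed a similar course. The Vim signal at days 0, 3 and 7 was 11.77, 12.10 and 13.52 in PKM1 knock-in cells, 13.03, 12.24 and 11.50 in PKM2 knock-in cells, and 12.64, 12.38 and 14.48 in wild type (log2). At day 7 the PKM2 knock-in array was the lowest of all 9 and the wild type array the highest, so the day 7 group enclosed the day 0 group. Relative to day 0, day 7 was 1.75 higher in the PKM1 knock-in line, 1.53 lower in the PKM2 knock-in line (a log2 difference of -1.53), and 1.84 higher in wild type. The fitted mean difference of 0.69 ± 0.67 did not pass (limma adjusted p = 0.648).

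Among the repressor genes, Snai1 stood out on 1 array. The log2 scaled signal of Snai1 at days 0, 3 and 7 was 7.80, 6.97 and 11.99 in PKM1 knock-in cells, 8.65, 6.61 and 7.81 in PKM2 knock-in cells, and 8.87, 8.46 and 8.23 in wild type. The PKM1 knock-in day 7 array lay 4.19 above day 0 of the same line, on the same slide, while the other 2 lines were lower at day 7 than at day 0, by log2 differences of -0.84 (PKM2 knock-in) and -0.63 (wild type). The 3 days overlapped. The fitted difference between day 7 and day 0 was 0.91 ± 1.06 (adjusted p = 0.705) and became -0.73 without the PKM1 knock-in line.

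Like Cdh2 and Vim but unlike Snai1, Snai2 was highest on the day 7 arrays of the PKM1 knock-in and wild type lines. Its log2 scaled signal at days 0, 3 and 7 was 7.10, 6.64 and 8.46 in PKM1 knock-in cells, 6.65, 6.17 and 5.28 in PKM2 knock-in cells, and 7.44, 6.02 and 9.18 in wild type. Day 3 lay below day 0 with no overlap, and at day 7 the PKM2 knock-in array was the lowest of all 9. Neither difference passed: day 3 minus day 0 was -0.79 ± 0.73 (limma adjusted p = 0.531) and day 7 minus day 0 was 0.58 ± 0.73 (adjusted p = 0.728).

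Zeb2 was dim at days 0 and 3 and higher at day 7. Zeb2 signals at days 0, 3 and 7 were 3.86, 4.59 and 7.30 in PKM1 knock-in cells, 5.51, 5.33 and 6.03 in PKM2 knock-in cells, and 5.15, 2.32 and 8.10 in wild type (log2), where 2.32 is the floor. All 3 day 7 arrays lay above all day 0 arrays, and the gap was smallest in the PKM2 knock-in line. Day 7 averaged 7.14 ± 1.04 and day 0 averaged 4.84 ± 0.86 (SD, n = 3 lines each), a difference of 2.30 ± 0.93 (SE) that did not pass (limma adjusted p = 0.333). Because 2 of the 9 values are bounds set by background, the size of this difference depends on the floor.

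Twist1 and Zeb1 had the narrowest spans among the repressor genes, 3.68-fold and 2.57-fold over the 9 arrays. The Twist1 signal at days 0, 3 and 7 was 5.94, 5.37 and 6.59 in PKM1 knock-in cells, 7.25, 6.53 and 6.95 in PKM2 knock-in cells, and 7.00, 5.86 and 7.10 in wild type (log2). Each line was at its lowest at day 3, although the day 3 and day 0 arrays overlapped because the PKM1 knock-in line ran lower throughout. Its difference of -0.81 ± 0.25 at day 3 from day 0 had a limma adjusted p of 0.110, and 0.96 ± 0.25 at day 7 from day 3 had one of 0.0893. Zeb1 read 9.20, 8.12 and 8.07 at days 0, 3 and 7 in PKM1 knock-in cells, 9.12, 8.51 and 9.43 in PKM2 knock-in cells, and 9.02, 8.45 and 8.95 in wild type. All day 3 arrays of Zeb1 were below all day 0 arrays, with a difference of -0.75 ± 0.29 (adjusted p = 0.168). At day 7 it had stayed low in the PKM1 knock-in line and was near or above day 0 in the other 2 lines.

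Ccn1 had the widest span of the 10 genes, 83.1-fold over the 9 arrays. The log2 scaled signal of Ccn1 at days 0, 3 and 7 was 12.11, 7.74 and 13.82 in PKM1 knock-in cells, 11.45, 8.43 and 8.16 in PKM2 knock-in cells, and 12.11, 7.44 and 11.74 in wild type. Every line was high at day 0 and low at day 3 with no overlap, and at day 7 the PKM1 knock-in and wild type lines were high while the PKM2 knock-in line remained low. Day 3 averaged 7.87 ± 0.51 and day 0 averaged 11.89 ± 0.38 (SD, n = 3 lines each). The difference was -4.02 ± 1.11 (SE), a 16.2-fold lower level, and did not pass (limma adjusted p = 0.0919). Within slide 1 it was -3.03 in the PKM2 knock-in line, and with the slide as a block the fitted -4.02 passed (adjusted p = 0.0383), as did 3.85 percent of all genes. Less RNA per cell and fewer cells with the RNA cannot be told apart in such bulk samples.

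Ccn2 ran in parallel at a higher signal. Ccn2 signals at days 0, 3 and 7 were 13.32, 10.75 and 15.15 in PKM1 knock-in cells, 12.91, 11.58 and 11.37 in PKM2 knock-in cells, and 13.68, 10.62 and 13.79 in wild type (log2). The same 3 day 0 arrays and the same 2 day 7 arrays were high. Day 3 averaged 10.98 ± 0.53 and day 0 averaged 13.30 ± 0.39 (SD, n = 3 lines each), a difference of -2.32 ± 0.81 (SE, limma adjusted p = 0.140, and 0.0698 with the slide as a block). Without the PKM2 knock-in day 7 array, which adds only to the estimate of the spread here, both differences passed, with adjusted p of 0.0189 for Ccn1 and 0.0399 for Ccn2, beside 8.37 percent of all genes.

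Promoter sequences from RefSeq (build GRCm38.p6), from 250 bases before to 50 after the start of transcription, were matched for 5 of the 10 genes. Any entries of the 10 genes on 1 chromosome were left out beforehand, so these 5 need not be all that have an entry. They were searched on both strands for the TEAD motif GGAATG, the E-box CAGGTG, the AP-1 motif TGANTCA, the CREB motif TGACGT and the CArG box of SRF, none of which overlapped another in these promoters. Of 32851 promoters in the table, 14.7 percent held GGAATG, 20.2 percent CAGGTG, 7.81 percent TGANTCA, 7.51 percent TGACGT and 1.63 percent a CArG box. The promoters of Ccn1 (chr3:145649936-145650235, minus strand), Zeb2 (chr2:45110228-45110527, minus strand, 1 of its 4 starts) and Snai1 (chr2:167537945-167538244, plus strand) are shown because, of the 5 matched genes, these spanned the widest ranges over the arrays (83.1-fold for Ccn1, 41.8-fold for Snai1 and, counted from the lowest measurable signal, at least 16.6-fold for Zeb2). Capitals mark the matches, which are letters and not shown sites of binding.
Ccn1: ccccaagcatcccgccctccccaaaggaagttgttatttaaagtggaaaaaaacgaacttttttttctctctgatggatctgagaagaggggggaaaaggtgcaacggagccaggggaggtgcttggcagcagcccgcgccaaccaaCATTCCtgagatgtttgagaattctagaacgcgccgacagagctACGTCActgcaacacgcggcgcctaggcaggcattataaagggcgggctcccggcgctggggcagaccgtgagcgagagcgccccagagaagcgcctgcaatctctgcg
Zeb2: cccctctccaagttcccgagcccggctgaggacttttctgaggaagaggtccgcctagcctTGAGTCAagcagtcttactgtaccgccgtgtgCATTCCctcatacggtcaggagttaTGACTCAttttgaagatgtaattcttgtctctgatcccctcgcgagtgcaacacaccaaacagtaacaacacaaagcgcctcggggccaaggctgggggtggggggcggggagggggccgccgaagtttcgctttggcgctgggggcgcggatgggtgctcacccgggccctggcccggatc
Snai1: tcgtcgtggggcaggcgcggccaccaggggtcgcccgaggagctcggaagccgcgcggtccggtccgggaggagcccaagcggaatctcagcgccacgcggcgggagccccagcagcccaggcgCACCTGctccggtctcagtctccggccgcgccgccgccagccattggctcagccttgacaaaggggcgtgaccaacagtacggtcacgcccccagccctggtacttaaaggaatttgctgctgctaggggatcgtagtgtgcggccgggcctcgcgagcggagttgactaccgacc
The Ccn1 promoter held the reverse complement of GGAATG 103 bases and that of TGACGT 59 bases upstream of the start. The Zeb2 promoter shown held AP-1 motifs 189 and 132 bases upstream and, between them, the reverse complement of GGAATG at 157 bases. Of its 4 starts, only this one held any of the 5 motifs. In Snai1 the reverse complement of CAGGTG lay 126 bases upstream. The Twist1 promoter held the reverse complement of TGACGT 97 bases upstream, and the Vim promoter held none of the 5 motifs.

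Set side by side, the 10 genes were mostly lower at day 3 than at day 0. Of the 10, 9 were lower, beside 43.2 percent of all genes, and Cdh1 was higher, with a median difference of -0.77, beside a median of 0.09 over all genes tested. None passed the test, where 4.05 percent of all genes did (608 genes, and 3932 at an unadjusted p under 0.05). Snai2, Zeb1, Ccn1 and Ccn2 were the 4 whose day 3 arrays all lay below their day 0 arrays, a pattern that 14.3 percent of all genes shared. The genes at least 2-fold lower at day 3 were 3 of 10 in the PKM1 knock-in line (9.78 percent of all genes), 3 of 10 in the PKM2 knock-in line (10.9 percent) and 5 of 10 in wild type (10.4 percent). Ccn1 and Ccn2 were among them in all 3 lines.

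At day 7 the lines parted. Relative to day 0, at least 2-fold higher were 7 genes in the PKM1 knock-in line (Cdh2, Vim, Snai1, Snai2, Zeb2, Ccn1 and Ccn2), beside 14.5 percent of all genes, and Zeb1 differed by -1.13. In wild type there were 4, namely Cdh2, Vim, Snai2 and Zeb2, beside 7.62 percent of all genes. In the PKM2 knock-in line 0 were higher by that much, beside 8.48 percent of all genes, and Vim, Snai2, Ccn1 and Ccn2 were lower, beside 9.06 percent of all genes. Line medians over the 10 genes were 1.73 in the PKM1 knock-in, -0.86 in the PKM2 knock-in and 0.13 in the wild type line. These are differences between single arrays and have no test. In the fit over the 3 lines, 7 genes were higher (46.6 percent of all genes) and 3 lower at day 7, none passed (background 0.0932 percent), and Zeb2 was the 1 gene whose groups did not overlap (6.85 percent of all genes in that direction).

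Between day 7 and day 3 the line medians were 1.98 in the PKM1 knock-in, -0.23 in the PKM2 knock-in and 2.63 in the wild type line. Of the 10, 9 were higher at day 7, beside 41.9 percent of all genes, and Cdh1 was lower, with a median of 1.68 beside -0.13 over all genes. None of the 10 passed, beside 0 percent of all genes by limma (4549 at an unadjusted p under 0.05). The difference was 3.37 ± 1.11 for Ccn1 (adjusted p = 0.113) and 2.45 ± 0.81 for Ccn2 (adjusted p = 0.114). For Zeb2 it was 3.06 ± 0.93 (adjusted p = 0.103), a size that rests in part on the wild type day 3 array at the floor and was 1.28 with normexp background correction. Cdh2 was 3.99-fold higher (adjusted p = 0.146). Ccn1 was 6.08 higher at day 7 than at day 3 in the PKM1 knock-in line, -0.27 in the PKM2 knock-in line and 4.30 in wild type. Zeb2 and Twist1 had day 7 arrays above all day 3 arrays, as had 10.1 percent of all genes. With the slide as a block, which in effect leaves out the PKM2 knock-in day 7 array, Cdh2, Vim, Snai2, Zeb2, Ccn1 and Ccn2 passed with adjusted p between 0.0158 and 0.0414, beside 6.52 percent of all genes. Without that array and with no block, Twist1 joined them (7 of 10), beside 15.9 percent of all genes (2381 genes).

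**Figure D2:**
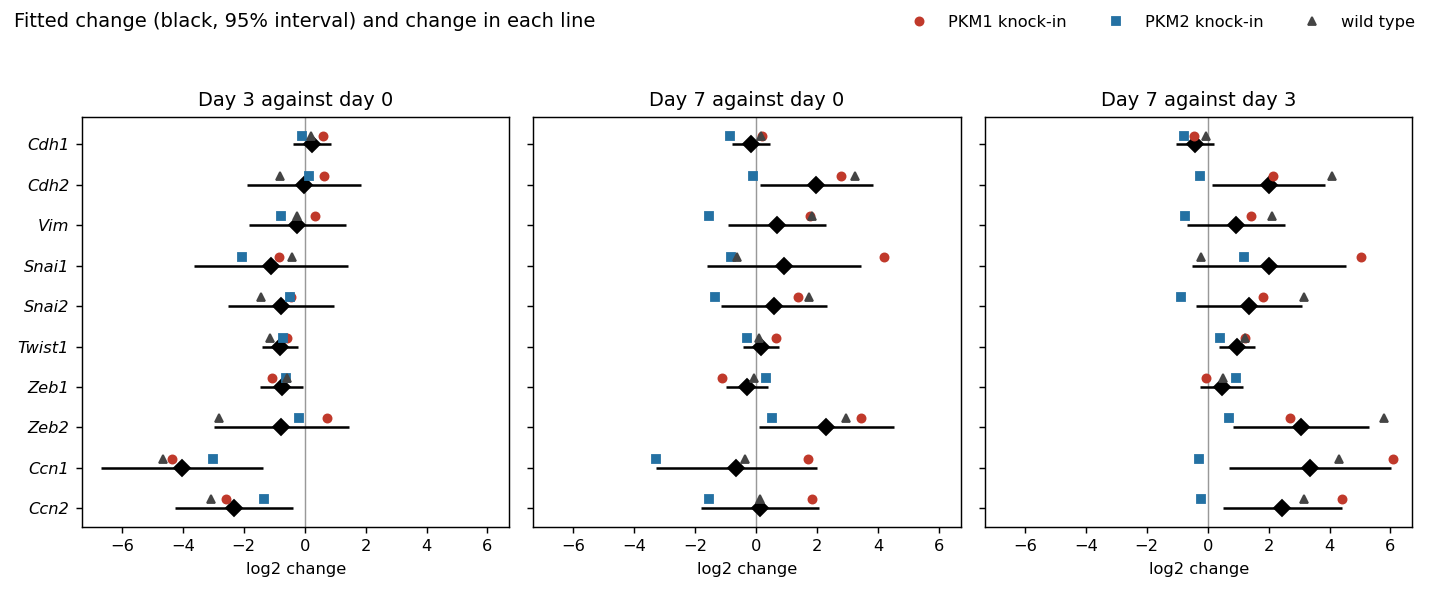
Differences in log2 scaled signal (horizontal axes) between days for the 10 genes. Black diamonds are the fitted differences with their 95% intervals (n = 3 lines), and coloured points are the single-array differences in the PKM1 knock-in, PKM2 knock-in and wild type lines. At day 3 against day 0 all 3 lines lie below zero for Ccn1 and Ccn2, and at day 7 against day 0 the PKM2 knock-in point lies below zero for Vim, Snai2, Ccn1 and Ccn2.

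Tested for any difference over the 3 days, 0 of the 10 genes passed, beside 1.19 percent of all genes. The smallest adjusted p (limma F test) were 0.111 for Twist1 and 0.121 for Ccn1. Over the 3 lines 0 passed, beside 0.0133 percent of all genes, and the smallest was 0.299 for Twist1.

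Comparisons of the lines over all days gave no call among the 10 genes. None passed in PKM1 knock-in against wild type (background 0.0133 percent, 1851 genes at an unadjusted p under 0.05), in PKM2 knock-in against wild type (0.0133 percent, 2013 genes) or in PKM2 knock-in against PKM1 knock-in (0 percent, 1193 genes). Few genes kept 1 direction on all 3 days. Cdh1 was higher in the PKM1 knock-in line than in wild type at days 0, 3 and 7, by 0.53, 0.94 and 0.56, and its arrays did not overlap, as was so for 5.48 percent of all genes in that direction. The fitted difference of Cdh1 was 0.68 ± 0.26 (SE, n = 3 days, limma adjusted p = 0.369). Twist1 was lower in the PKM1 knock-in line than in wild type on each day (-0.68 ± 0.25, adjusted p = 0.347) and higher in the PKM2 knock-in than in the PKM1 knock-in line (0.94 ± 0.25, adjusted p = 0.626). Vim was lower in the PKM1 knock-in line than in wild type (-0.70 ± 0.67, adjusted p = 0.749). Snai2 was lower in the PKM2 than in the PKM1 knock-in line (-1.37 ± 0.73, adjusted p = 0.647). For PKM2 knock-in against wild type, Snai1 gave -0.83 ± 1.06 (adjusted p = 0.762) and Zeb1 0.22 ± 0.29 (adjusted p = 0.775), and both turned sign with the slide as a block, as did Cdh2, Ccn1 and Ccn2 in that comparison.

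At day 0, 0 of the 10 genes differed by 2-fold between PKM2 knock-in and wild type, which lay on 1 slide (5.5 percent of all genes were higher and 7.33 percent lower by that much). At day 7, Cdh2, Vim, Snai2, Zeb2, Ccn1 and Ccn2 were at least 2-fold lower in PKM2 knock-in than in wild type, by log2 differences of -2.07 (Zeb2) to -3.90 (Snai2), beside 12.1 percent of all genes. Against the PKM1 knock-in line at day 7, 7 genes were at least 2-fold lower in the PKM2 knock-in line, beside 16.2 percent of all genes, with -5.67 for Ccn1, -4.18 for Snai1 and -3.77 for Ccn2. Zeb1 was 1.36 higher there. PKM1 knock-in exceeded wild type at day 7 by 3.76 for Snai1, 2.08 for Ccn1 and 1.35 for Ccn2, and Cdh2 was lower by a log2 difference of -1.01. Day 7 of the PKM2 knock-in line is the sole array of slide 3, so at that day line and slide cannot be told apart. The day 7 arrays of the PKM1 knock-in and wild type lines lay on slides 2 and 1, so the same holds between them.

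**Figure D3:**
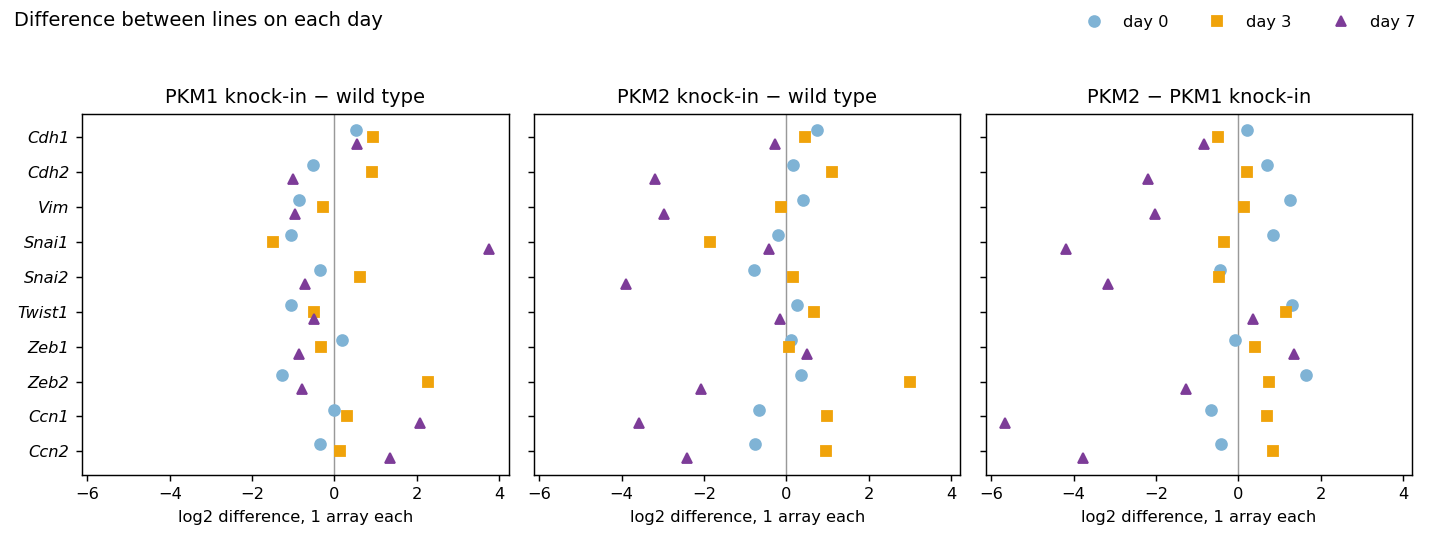
Differences in log2 scaled signal (horizontal axes) between lines for the 10 genes, each point being 1 array minus 1 array of the same day, with no error bar. Points for days 0 and 3 lie nearer to zero than those of day 7 for Vim, Snai2, Ccn1 and Ccn2 in both comparisons of the PKM2 knock-in line.

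Cell type markers also differed between the arrays. The summed scaled signal of 16 fibroblast and feeder cell markers was 1255 at day 3 and 20187 at day 0 in PKM1 knock-in cells, 917 and 5746 in PKM2 knock-in cells, and 2035 and 20367 in wild type. At day 3 between 7 and 10 of the 16 were well above background, against 12 to 14 at day 0. At day 7 the sum was 11084 in the PKM1 knock-in, 822 in the PKM2 knock-in and 4539 in the wild type line. Such sums are weighted to the brightest genes. Pdgfra was the brightest at day 7 in the PKM1 knock-in line (12.10, log2) but was not well above background in wild type (3.54). Of the 13 tested markers, 10 were lower at day 7 than at day 0, where 46.6 percent of all genes were higher. Col6a3 and Mgp passed, beside 0.0932 percent of all genes. Lum, Dpt and Fap were well above background on too few arrays to be tested. Visceral endoderm markers, of 10 genes, summed to 500603 in the PKM1 knock-in, 4077 in the PKM2 knock-in and 8092 in the wild type line at day 7, and to between 1702 and 2351 at day 0. The 10 parietal endoderm markers summed to 885521, 68647 and 164300 at day 7 in the PKM1 knock-in, PKM2 knock-in and wild type lines, and to 59856, 61108 and 66583 in the same lines at day 0. ES cell markers summed to 189311, 430780 and 290425 at day 7 in these lines. The part of these cell types in the differences of the 10 genes was not tested.

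Other genes of the programme were read from lists. Of 25 epithelial junction and identity genes, 12 were higher and 13 lower at day 3 than at day 0, where 43.2 percent of all genes were lower. Their median of -0.01 changed sign under other scalings, and 0 passed, beside 4.05 percent of all genes. At day 7, 17 were higher and 8 lower than at day 0, with a median of 0.13, where 46.6 percent of all genes were higher. Line medians were 0.54 in the PKM1 knock-in, -0.63 in the PKM2 knock-in and 0.53 in the wild type line. Among the members with large differences, the keratin genes Krt8, Krt18 and Krt19, which encode filaments of simple epithelia, parted by line in the way Vim did. Relative to day 0, Krt8 differed by 5.20 in the PKM1 knock-in, -3.02 in the PKM2 knock-in and 3.58 in the wild type line. Krt18 differed by 5.40, -3.10 and 3.81 in the same order of lines, and Dsp, which encodes the desmosome protein desmoplakin, by 3.62, -1.52 and 3.38. None of the 25 genes passed at day 7, beside 0.0932 percent of all genes. Krt8, Krt18 and Dsp were thus high on the same 2 day 7 arrays as Cdh2 and Vim.

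Of 24 mesenchymal genes tested, 5 were higher and 19 lower at day 3 than at day 0, with a median of -1.03. Over all genes 43.2 percent were lower. Foxc2, a forkhead factor of mesoderm, was well above background on the 3 day 0 arrays alone and entered the test through them, so its lower level at days 3 and 7 is a description. Its signals at day 0 were 5.70 in the PKM1 knock-in, 5.96 in the PKM2 knock-in and 6.11 in the wild type line (log2). Of the other 23 genes, 2 passed and fell at day 3, beside 2.2 percent of all genes that passed in that direction. They were Fbln5 (an elastic fibre protein, at least 18.0-fold lower, adjusted p = 0.00999) and Tnc (tenascin C, at least 1.55-fold lower, adjusted p = 0.0425). Neither was well above background on a day 3 array, so these folds are bounds from the lowest signal that could be measured there, and Tnc was well above background on 2 of the 3 day 0 arrays. The fitted difference of Tnc, -2.50, was -0.45 with normexp background correction, -0.25 with the percentile taken over probes detected on all arrays and -0.54 with a floor of 20, and passed under none of these 3. The fall stood beside that of the fibroblast markers, 6 of whose 13 tested members passed and fell. At day 7, 11 of the 24 were higher and 13 lower than at day 0, with a median of -0.03 that changed sign under other scalings. Among those with large differences, Acta2, the smooth muscle actin gene, differed at day 7 from day 0 by 6.54 in the PKM1 knock-in, -5.11 in the PKM2 knock-in, where it was not well above background at day 7, and 6.39 in the wild type line. Loxl2, encoding a collagen cross-linking enzyme, differed by 5.35, -0.96 and 4.95 in these lines. None of the 23 genes besides Foxc2 passed at day 7, beside 0.0932 percent of all genes.

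In the CCN family itself, Ccn5 and Ccn4 could be tested, and Ccn3 and Ccn6 could not. Ccn5, whose protein lacks the C-terminal domain of the other family members, was well above background on the 3 day 0 arrays only. Its day 0 signals were 7.84 in the PKM1 knock-in, 4.63 in the PKM2 knock-in and 6.97 in the wild type line (log2). Ccn5 thus entered the test through its day 0 arrays alone, so that it was at least 4.78-fold lower at day 3 and at least 5.19-fold lower at day 7 is a description. Ccn4, a target of Wnt signalling, was measured on 3 arrays, with 9.21 at day 7 in the PKM1 knock-in line, 6.17 at day 0 in the PKM2 knock-in line and 10.15 at day 7 in wild type. Ccn4 thus was high at day 7 in the 2 lines in which Ccn1 and Ccn2 were high.

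Lists built around known regulators of the CCN genes, which also hold targets and other genes of these pathways, were read in the same way. Of 25 YAP and TEAD genes and targets, 19 were lower and 6 higher at day 3 than at day 0, with a median of -0.52. Over all genes, 43.2 percent were lower, with a median of 0.09. Fstl1, encoding a secreted glycoprotein, was the 1 that passed (-1.16 ± 0.23, adjusted p = 0.0462, or 0.0563 with slide as a block term). Over all genes 4.05 percent passed, and 2.2 percent passed and were lower, so 1 call among 25 genes is near the background. Ankrd1, a target often read beside Ccn1 and Ccn2, was not well above background on the day 3 arrays (adjusted p = 0.312). Its signals at day 7 were 11.25 in the PKM1 knock-in, 2.32 (the floor) in the PKM2 knock-in and 7.69 in the wild type line, and at day 0 they were 4.33 (not well above background), 7.76 and 5.65 in the same lines (log2). At day 7 Ankrd1 thus was high in the 2 lines in which Ccn1 and Ccn2 were high.

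The SRF and immediate early genes gave the most calls. Of 22 tested, 20 were lower and 2 higher at day 3 than at day 0, with a median of -1.76. Among them 9 passed and fell, beside 2.2 percent of all genes. Srf, Vcl, Tpm1, Myl9 and Flna, also in this list, did not pass, and the 2 higher genes were Tpm1 and Myl9. Fos, which encodes a partner of Jun in AP-1, fell by 7.42 on the log2 scale (± 0.70, adjusted p = 0.0125). Egr2, a zinc finger factor, fell by 6.55 (± 1.07, adjusted p = 0.0351), Fosb, of the Fos family, by 5.77 (± 0.83, adjusted p = 0.0285), and Atf3 by 5.25 (± 0.99, adjusted p = 0.0443). Egr2 was not well above background on the PKM1 knock-in and wild type day 3 arrays, and its difference was -3.86 with normexp background correction. When slide was fitted as a block, Fos and Fosb passed (adjusted p = 0.0278 and 0.0474) and Egr2 and Atf3 did not (0.0523 and 0.0590). The list medians were below day 0 at day 7 in all 3 lines, at -0.80 in the PKM1 knock-in, -1.53 in the PKM2 knock-in and -1.65 in the wild type line. Of 21 TGF-beta pathway genes, 14 were lower and 7 higher at day 3, where 43.2 percent of all genes were lower. In this list 1 gene passed in each direction, beside 4.05 percent of all genes in either direction. Ltbp2, a matrix protein related to the binding proteins of latent TGF-beta, fell by 2.86 (± 0.33, adjusted p = 0.0181), and Skil, a repressor of Smad signalling, rose by 1.42 (± 0.28, adjusted p = 0.0481, or 0.0532 with slide as a block term). None of the 9 list genes named as passing at day 3 (Fbln5, Tnc, Fstl1, Fos, Egr2, Fosb, Atf3, Ltbp2 and Skil) passed without the wild type line or without the PKM1 knock-in line, where 0 of all 15014 genes passed. None of the 9 passed without the PKM1 knock-in day 0, PKM1 knock-in day 3 or wild type day 3 array alone, where 2, 5 and 9 of all genes passed, and 1, Fbln5, did without the wild type day 0 array (17 of all genes). Their signs stayed on leaving out a line or array, and the differences lay at -4.08 to -4.82 for Fbln5, -6.57 to -8.56 for Fos and -2.54 to -3.15 for Ltbp2.

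**Figure D4:**
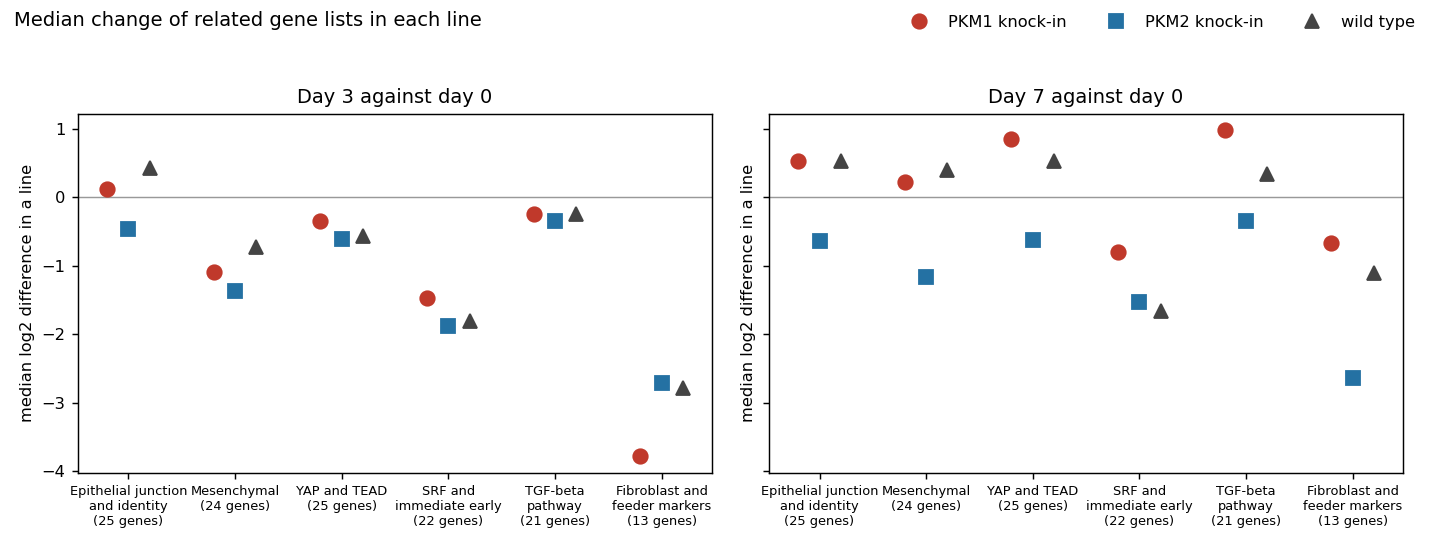
Median log2 difference (vertical axes) of 6 gene lists in each line at day 3 against day 0 and at day 7 against day 0. Each point is the median over the tested genes of a list between 1 pair of arrays, with no error bar. At day 7 the epithelial, mesenchymal, YAP and TEAD and TGF-beta medians are above zero in the PKM1 knock-in and wild type lines and below zero in the PKM2 knock-in line.

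Among the genes tested that have an established symbol, those with the most similar course over the 9 arrays were found by Pearson correlation. They are given as a description with no test, since the arrays share lines and days. For Ccn1 the most similar of these was Ccn2 (r = 0.984), followed by Crem, which encodes a cyclic AMP responsive factor (r = 0.982), and Gjb2, which encodes a gap junction protein (r = 0.978). For Ccn2 it was Ccn1, followed by St3gal1 (r = 0.983) and the glutamate transporter gene Slc1a3 (r = 0.977). Cdh2 was closest to Fam102b, Irs4 and Capn2 (r = 0.975 to 0.972), and Vim to Wnt9a, Vgf and Unc5b (r = 0.980 to 0.950). Snai1 was closest to Plscr1 (r = 0.986), Gsta2 and Serpinf2, Snai2 to Setd7 (r = 0.983), St7 and Irx1, and Zeb2 to Prmt2 (r = 0.963), Kcnmb4 and Wbp1l. For Cdh1 the nearest were Vsig10 (r = 0.952), Synj2 and Slc47a2, for Twist1 Stx2 (r = 0.958), Cstdc5 and Snap29, and for Zeb1 Ripply3 (r = 0.955), Calcoco1 and Gpr26. Within the 10 genes, Cdh2 ran with Zeb2 (r = 0.900), Vim (r = 0.862) and Snai2 (r = 0.825), and Vim with Snai2 (r = 0.861). By rank (Spearman) the same pairs were lower, at 0.85, 0.60 and 0.50 for Cdh2 and 0.73 for Vim with Snai2. Snai2 also ran with Ccn2 (r = 0.805, Spearman 0.90) and Ccn1 (r = 0.767, Spearman 0.82). Snai1 ran with Ccn2 at an r of 0.732 (Spearman 0.52) and with Ccn1 at 0.700 (Spearman 0.53). Cdh1 and Cdh2 showed an r of -0.02, and the lowest correlation of Cdh1 was with Zeb1 (r = -0.63).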

How the data were processed

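RNA from 3 mouse ES cell lines at 3 days was hybridised to 9 one-colour Agilent arrays. Per the labels, 0.1 µg of column-purified RNA was labelled with Cy3. The deposited intensity values are the authors' processed signals, made and background-subtracted with Agilent Feature Extraction 10.10 per the submitters' processing notes and the file headers. A value table that the authors also deposited repeats these intensity values in rounded form (largest difference 0.497 percent).

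Control spots (3671 of 62976) and spots carrying an outlier flag (133 to 225 per array) were left out and repeated spots of a probe averaged. Probes were named through the RefSeq accession and a RefSeq gene list. Of 55681 probes, 1 symbol was found for 27235 and none for 28446. Processed signals were scaled to a common 75th percentile, given a floor of 5 and put on the log2 scale. The brightest probe stood for its gene, among probes that at least 3 arrays showed well above background. An additive model of line and day (4 residual degrees of freedom) was fitted with limma 3.58.1 in R 4.3.3 with the data.table package (version 1.17.8), with Benjamini and Hochberg adjustment over all 15014 genes and a call at an adjusted p under 0.05. With 1 array per line and day, a difference between lines in their course over days cannot be tested. The method was tested on simulated data. Files were read and figures drawn with matplotlib 3.10.9, pandas 2.3.3 and numpy 2.4.6 in Python 3.11.15.

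The 10 genes and the lists were chosen with earlier results of these data known. All 10 genes were named, with up to 4 members of each list, called ones first and then by size of change, and the 3 most similar genes with an established symbol. Further members of the SRF and immediate early list were named because they did not pass. Other markers of germ layers, neural crest and endothelium were computed and are not described here. Where no array of a group showed a probe well above background, folds are bounds against the lowest signal well above background on each array. Other scalings moved the median of all genes by over 0.1 only with the percentile taken over probes detected on all arrays (-0.14 at day 3 against day 0 and 0.18 at day 7 against day 3). With normexp correction (offset 50), 560 genes were called higher and 368 lower at day 3 against day 0, in place of 278 higher and 330 lower. The number of arrays limits the precision, and the median standard error of a log2 difference was 0.26.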

Additional observations from a re-analysis of the deposited data

Results flagged for a closer look

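Between day 7 and day 0, 4 of the 10 genes differed at least 2-fold in opposite directions in different lines, on arrays all well above background. Vim differed by 1.75 in the PKM1 knock-in, -1.53 in the PKM2 knock-in and 1.84 in the wild type line (log2). For Snai2 the values were 1.36 in the PKM1 knock-in, -1.36 in the PKM2 knock-in and 1.74 in the wild type line. Ccn1 differed by 1.71 in PKM1 knock-in cells and -3.30 in PKM2 knock-in cells, and Ccn2 by 1.83 in PKM1 knock-in cells and -1.54 in PKM2 knock-in cells. The PKM1 knock-in and wild type pairs each lay on 1 slide, and the PKM2 knock-in pair lay on 2 slides. With 1 array per line and day, the difference between lines was not tested.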

How the results depend on the processing

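Line and day are both terms of the fit, so days are paired within lines, and replicate numbers only name samples. Without the other term 0 of the 10 genes were called in each comparison. In each of the 3 comparisons between lines, and over lines, 0 of the 10 genes were called under every alternative run. At day 3 against day 0 the 0 calls became 1 at an adjusted p under 0.1, 2 with only the 6 arrays compared, 1 with the slide as a block, and 0 to 2 when a line, day or array was left out. At day 7 against day 3 they became 1 at an adjusted p under 0.1, 6 with the slide as a block, and 0 to 7 on leaving out. At day 7 against day 0 they were 0 to 1 on leaving out, and over days 4 with the slide as a block and 0 to 6 on leaving out. The highest of these came without the PKM2 knock-in day 7 array. There 8.37 percent of all genes passed at day 3 against day 0, 1.51 percent at day 7 against day 0 and 15.9 percent at day 7 against day 3. Over days 2004 genes passed there. With the slide as a block the shares were 3.85 percent at day 3 against day 0 and 6.52 percent at day 7 against day 3. At an adjusted p under 0.1, 1751 of 15014 genes passed at day 3 against day 0, so 1 call among 10 genes is near the background. Slide as a block turned 14 of the 60 fitted differences of the 10 genes, 2 of them between days and the others between lines (3 in PKM1 knock-in against wild type, 5 in PKM2 knock-in against wild type and 4 in PKM2 against PKM1 knock-in). Among values given above it turned Cdh1 (0.082) and Ccn1 (0.92) at day 7 against day 0, and Snai1 (0.28) and Zeb1 (-0.053) in PKM2 knock-in against wild type. The cause was not tested. Leaving out a line, day or array turned some signs. Ranges at day 3 against day 0 were -0.62 to 0.69 for Cdh2, -0.65 to 0.45 for Vim and -1.50 to 0.43 for Zeb2. At day 7 against day 0 they were -0.36 to 0.17 for Cdh1, -0.73 to 1.85 for Snai1, -0.16 to 1.63 for Snai2, -0.10 to 0.40 for Twist1, -0.60 to 0.12 for Zeb1, -1.92 to 0.92 for Ccn1 and -0.78 to 1.22 for Ccn2. Zeb1 in PKM2 knock-in against wild type ranged from -0.052 to 0.405. For the 9 named list genes that passed at day 3 against day 0, the same signs held throughout, and 5 passed with the slide as a block, 3 with no filter, 6 to 9 under the other scalings and 0 to 9 when a line or array was left out. Of 1144 values of single genes under alternatives, list genes included, 997 kept their sign and their side of the threshold, 91 no longer passed, 31 turned sign and 25 passed in addition. Zeb2 left the test when all 9 arrays had to be above background, and the F tests were not run with 6 arrays. Calls over all genes ranged from 0 to 1751 at day 3 against day 0 (608 as reported), 0 to 227 at day 7 against day 0 (14), 0 to 2381 at day 7 against day 3 (0), 0 to 8 in PKM1 knock-in against wild type (2), 0 to 17 in PKM2 knock-in against wild type (2), and 0 to 2004 over days (179).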
